A study of Mus musculus with 6 samples.

Results

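The genes described here encode the NF-κB transcription factors and proteins that regulate them. The factors are the precursors Nfkb1 and Nfkb2 and the Rel proteins Rela, Relb and Rel. The regulators are the cytoplasmic IκB inhibitors Nfkbia, Nfkbib and Nfkbie, the nuclear IκB Nfkbiz, and Tnfaip3. Together these are 10 of 21757 protein-coding genes, chosen by name. A chromatin interval was assigned to a gene when it overlapped the stretch from 3 kb upstream of the gene start to the gene end, and 111 of the 279569 intervals of the list met this rule.

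Chromatin accessibility was profiled by ATAC-seq, in which a transposase cuts and tags open DNA, in nuclei from mouse kidney cortex. The 3 WT libraries came from Acly fl/fl littermates without Cre, and the 3 Acly cKO libraries from Acly fl/fl mice carrying Ksp-Cre, which recombines in renal tubular epithelium, so only tubule cells were meant to lack ACLY, the enzyme that makes acetyl-CoA from citrate. All 6 carry the treatment label Control, and their labels give no age. By their labels the WT libraries were made in batches 1 and 2 but those of Acly cKO in batches 4 and 5, and no batch holds both, so the effects of genotype and of batch cannot be told apart. The deposited peak list is a single call over pooled libraries, as its peak names show, and does not name the libraries in the pool. It therefore holds 1 value per interval with no replicate error. The genotypes were not compared, and how deeply each library was sequenced is not known from the list. In a whole-tissue profile, fewer cells with an open site and less opening per cell cannot be told apart. Over all protein-coding genes, 57.4% had a promoter interval of at least 10-fold. Promoter intervals of at least 10-fold were listed for 3 of 6 proximal tubule marker genes (range 0 to 33.1), 1 of 3 of the thick ascending limb and distal tubule (8.38 to 20.8), 1 of 2 of the collecting duct (4.19 to 22.7), 0 of 2 podocyte markers (2.88 to 4.52), 0 of 3 endothelial markers (2.49 to 4.12), 1 of 7 immune markers (0 to 20.3) and 0 of 5 markers of other organs (0 to 8.05), where 0 stands for no interval.

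NF-κB proteins bind DNA as dimers built from a shared Rel homology domain. In resting cells IκB proteins keep the dimers in the cytoplasm, and signals from cytokine and pattern-recognition receptors activate the IκB kinase, which marks IκB for destruction and frees the dimers to enter the nucleus. Several of the genes that NF-κB switches on encode its own subunits and inhibitors, which closes feedback loops, and in the kidney the pathway is known for its part in tubular inflammation after injury.

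The DNA element that NF-κB dimers recognise is the κB site. Its consensus, searched here on both strands, reads G, G, G, a purine, any base, A or T, a pyrimidine, a pyrimidine, C, C. The accessible interval at the start of every member held at least 1 such match, against 33.4% of the 16534 intervals at starts of protein-coding genes. That baseline is not matched for width. Among the intervals at least as wide as that of the narrowest member (3533 bp), 57.9% held a match. The same letters in reversed order were found in the intervals of 9 members, against 34.7% of all such intervals. Presence of a match alone therefore says little about the κB letters. A match to these letters describes the sequence and does not show binding. The sequences below are from GRCm39, written 5′ to 3′ on the strand of the gene, with the κB match in capitals. For each gene the match closest to the highest summit of its promoter interval is shown, and matches that fall in untranslated exons are given with short flanks. The first set belongs to the precursor genes.
Nfkb1 promoter interval (chr3:135397258-135397287, minus strand): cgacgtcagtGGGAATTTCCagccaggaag
Nfkb2 promoter interval (chr19:46293127-46293156, plus strand): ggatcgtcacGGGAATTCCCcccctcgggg
The Nfkb1 match lay 95 bp from the summit, inside an untranslated exon, 469 bp downstream of the start. The Nfkb2 match lay 137 bp from the summit and is a perfect palindrome. The Rel protein genes follow, with a further Relb match because it sits immediately upstream of the start.
Rela promoter interval (chr19:5687901-5687960, plus strand): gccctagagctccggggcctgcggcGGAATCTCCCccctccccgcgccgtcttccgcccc
Relb promoter interval (chr7:19362286-19362315, minus strand): aacggagacgGGGGTTTTCCtgaggcatca
Relb upstream of the start (chr7:19363426-19363485, minus strand): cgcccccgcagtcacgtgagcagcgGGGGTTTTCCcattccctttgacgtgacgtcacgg
Rel promoter interval (chr11:23721041-23721070, minus strand): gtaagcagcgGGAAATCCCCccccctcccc
The Relb match upstream of the start was centred 31 bp before it. The other Relb match and the Rela match were farther from the summit, at 341 and 511 bp, and that of Rel was at 240 bp. The genes of the regulators complete the set.
Nfkbia promoter interval (chr12:55539427-55539486, minus strand): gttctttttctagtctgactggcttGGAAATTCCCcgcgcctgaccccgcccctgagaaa
Nfkbib promoter interval (chr7:28465922-28465951, minus strand): ggggcgtgttGGGGAATTCCcgatagggcg
Nfkbie promoter interval (chr17:45866495-45866554, plus strand): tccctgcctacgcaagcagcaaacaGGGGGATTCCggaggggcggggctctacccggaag
Nfkbiz promoter interval (chr16:55659213-55659242, minus strand): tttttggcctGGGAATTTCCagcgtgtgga
Tnfaip3 promoter interval (chr10:18891151-18891180, minus strand): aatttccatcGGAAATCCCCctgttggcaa
The Nfkbia match was centred 25 bp upstream of the gene start and 43 bp from the summit. The decamer of Nfkbiz, 31 bp from the summit, is the same as that of Nfkb1, and read on the opposite strand it is the Nfkbia decamer. The matches of Tnfaip3, Nfkbie and Nfkbib were 70, 98 and 108 bp from their summits.

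At the gene starts, all members were accessible. A promoter interval here is the interval with the highest q that overlaps 1 kb on either side of the gene start, and its fold enrichment is the pileup at its highest summit over the caller's background. All 10 members had a promoter interval of at least 10-fold, as did 57.4% of protein-coding genes. Their fold enrichments ran from 25.3 to 70.3 with a median of 45.2, against a median of 17.5 over all protein-coding genes with absent intervals at 0, and 29.5 over the 74.3% of genes that had an interval. Every member lay above the first of these medians, and Nfkbie and Rela lay below the second. With 1 value per gene the spread around each is unknown, so the order of close neighbours in the following values cannot be resolved.

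Among the precursors, Nfkb1 encodes p105, which is processed to p50, and Nfkb2 encodes p100, which is processed to p52 in the non-canonical pathway. The promoter of Nfkb1 (ENSMUSG00000028163.19, chr3:135290264-135397742, minus strand) was listed at 29.9-fold with a −log10 q of 494, above 63.3% of genes. Nfkb2 (ENSMUSG00000025225.17, chr19:46292759-46303812, plus strand) was listed at 45.0-fold with a −log10 q of 864, above 78.8% of genes. Their highest summits lay 564 bp (Nfkb1) and 246 bp (Nfkb2) downstream of the gene start.

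The Rel proteins carry the transactivation domain. Relb, the partner of p52, had the strongest promoter of the group at 70.3-fold (−log10 q 1553), above 94.5% of genes (ENSMUSG00000002983.20, chr7:19339017-19363425, minus strand). Rel, which encodes c-Rel and is best known from lymphocytes, was listed at 52.6-fold (−log10 q 1061), above 84.8% (ENSMUSG00000020275.11, chr11:23686847-23721264, minus strand). Rela, which encodes p65 of the canonical dimer, had the lowest value of the group at 25.3-fold (−log10 q 392), above 58.4% (ENSMUSG00000024927.10, chr19:5687493-5698161, plus strand). The widest range of any role was therefore within the Rel proteins, from Rela to Relb. In the marker list for immune cells, 4 of 7 genes had any promoter interval, against 74.3% of protein-coding genes. At least 10-fold was reached by 1 of the 7, against 57.4% of protein-coding genes. Which cells gave the Rel signal was not tested.

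The cytoplasmic inhibitors Nfkbia, Nfkbib and Nfkbie encode IκBα, IκBβ and IκBε. Nfkbia (ENSMUSG00000021025.10, chr12:55535332-55539432, minus strand) was listed at 55.3-fold (−log10 q 1135), above 86.6% of genes, and Nfkbib (ENSMUSG00000030595.17, chr7:28457486-28466937, minus strand) at 54.5-fold (−log10 q 1114), above 86.1%. Nfkbie (ENSMUSG00000023947.10, chr17:45866585-45874661, plus strand) was lower at 28.9-fold (−log10 q 471), above 62.1%. The Nfkbib summit lay 892 bp into the annotated gene but 20 bp from the start of its canonical transcript, and the interval also covered the start of Sirt2, an NAD-dependent deacetylase gene on the opposite strand, 115 bp from the summit. Its value therefore belongs to a promoter shared by both genes.

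Nfkbiz encodes IκBζ, an inducible nuclear IκB that acts on p50-bound genes, and Tnfaip3 encodes A20, a ubiquitin-editing enzyme that dampens signalling upstream of the kinase. The interval at the Nfkbiz gene start was listed at 45.4-fold (−log10 q 872), above 79.1% of genes (ENSMUSG00000035356.19, chr16:55631738-55659262, minus strand). The canonical transcript of Nfkbiz starts 16343 bp farther downstream, and there the list gave 74.2-fold, the highest value at any of the members. Tnfaip3 (ENSMUSG00000019850.13, chr10:18874201-18891405, minus strand) was listed at 38.2-fold (−log10 q 692), above 72.3%, with its summit 90 bp from the canonical start.

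**Figure D1:**
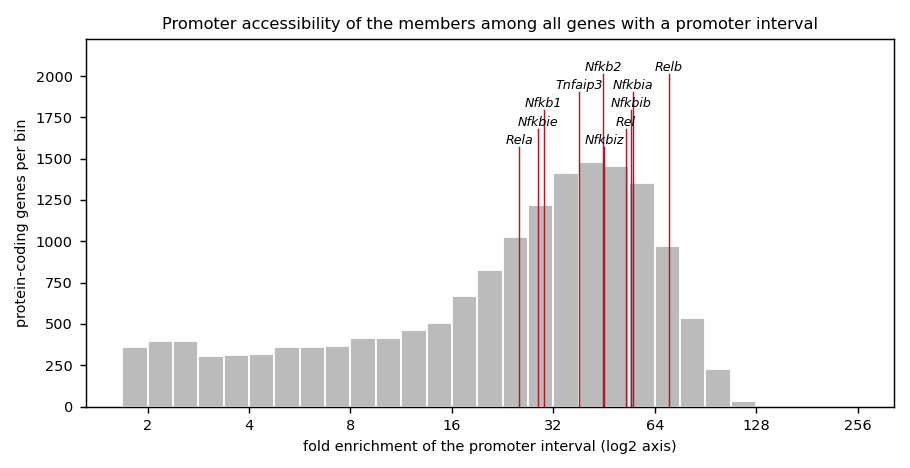
Fold enrichment of the promoter interval for all protein-coding genes that have one (grey bars, genes per bin of a log2 axis), with a red line at the value of each of the 10 members. The members sit between 25.3 and 70.3, with Rela and Nfkbie below the median of these genes (29.5) and Nfkb1 (29.9) beside it.

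The promoter intervals of the members were also wide. The median width was 6417 bp, against 2901 bp over genes with a promoter interval. At least 5000 bp was reached by 6 of 10 members and by 15.8% of protein-coding genes, a threshold chosen after the widths were seen. Width grows with strength in this list, so the members were also set beside the 7861 genes whose promoter fold lay in their own range. Those genes had a median width of 3680 bp, and 30.3% reached 5000 bp.

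The widest was Nfkb2, whose interval spanned 17541 bp with 55 summits, wider than at 99.2% of genes. It covered the gene end to end and ran on past it, taking in a transcript start of the neighbouring gene Psd 9738 bp from the summit and that of the noncoding 4833438C02Rik. Only 6 of its summits reached 10-fold, and these lay within 4664 bp, the second of them 1331 bp into the gene at 24.6-fold. Relb followed with 13292 bp and 36 summits, wider than at 98.1% of genes. Most of that interval was weak, since its second summit, 5652 bp upstream of the start, was at 10.0-fold against 70.3 at the first, and it also held a transcript start of Clptm1 7460 bp from the summit.

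Nfkbia was covered whole by an interval of 11363 bp with 28 summits, wider than at 97.1% of genes. Here 7 summits reached 10-fold over 7841 bp, and strength stayed high across the start, with 48.4-fold in intron 1 at 621 bp downstream. Nfkb2 and Nfkbia were the 2 of 10 members that lay wholly inside a single interval, as 3.37% of protein-coding genes did. Both are short genes, of 11054 and 4101 bp, beside a median of 19173 bp. Nfkbie (6757 bp), Tnfaip3 (6572 bp) and Nfkb1 (6262 bp) were wider than at 91.2%, 90.7% and 89.7% of genes. The narrower intervals belonged to Rel (4507 bp), Rela (3712 bp), Nfkbib (3646 bp) and Nfkbiz (3533 bp). At its internal canonical start, however, Nfkbiz carried an interval of 13772 bp with 36 summits, and counted there 7 members reached 5000 bp. Noncoding genes also started within the promoter intervals of Rela (Gm56632), Rel (Gm72547), Nfkbia (Gm36634), Nfkbib (Gm71901) and Tnfaip3 (Gm67161).

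**Figure D2:**
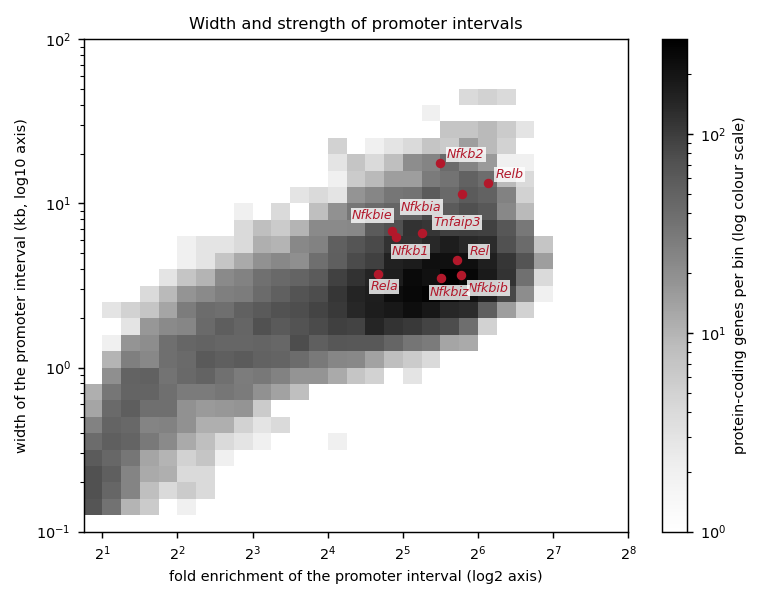
Width in kb against fold enrichment of the promoter interval, both on log axes, with the number of protein-coding genes per bin in grey and the 10 members as red points. Nfkb2, Relb and Nfkbia are the widest of the members, at 17541, 13292 and 11363 bp, and some other genes of similar fold have wider intervals.

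Beyond the gene starts, the members differed widely in how much of the gene was open. The 111 intervals comprised 10 at gene starts, 10 at other annotated starts of the same gene and 91 distal intervals, of which 71 had their highest summit in an intron, 8 in an exon, 6 upstream and 6 past the gene end. Under 3-fold were 77 of the 111 (69.4%, against 59.0% of all intervals), and Nfkb1 alone held 38 of these. At least 10-fold was reached by 20 (18%, against 12.3%). Of the 20, 10 were the promoter intervals, 3 were at other starts of the same gene and 7 were distal. The region of each member takes in its gene start by rule, so the share of strong intervals is not like for like with the whole list. The median member held 8.5 intervals, 3.78 per 10 kb of its region, and 74.4% of its region was covered, against 4 intervals, 1.86 per 10 kb and 16.7% over all protein-coding genes. That baseline includes genes with no promoter interval. It is not matched for gene length, whose median was 14129.5 bp in the members and 19173 bp over all genes. The covered share was above the gene median in 9 of 10 members, the exception being Rel at 12.5%. A distal interval of at least 5-fold was listed for 6 of 10 members, against 45.3% of protein-coding genes.

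**Figure D3:**
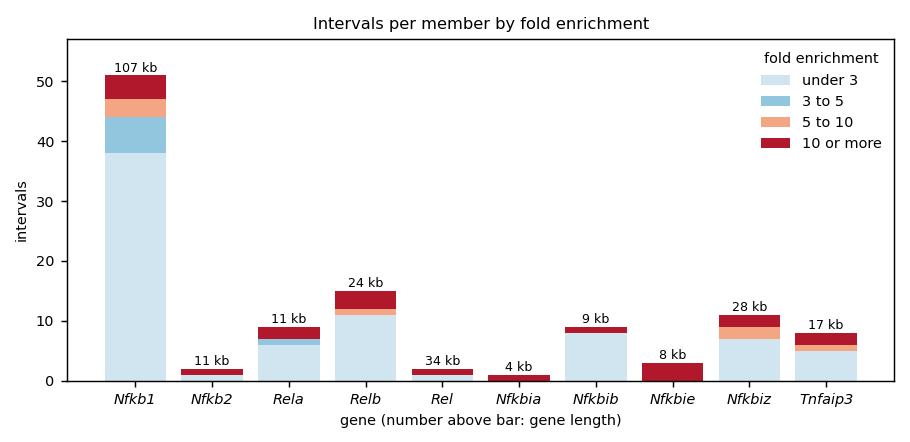
Number of intervals at each member, stacked by the fold enrichment of the highest summit, with the gene length in kb above each bar. Nfkb1 holds 51 of the 111 intervals, most of them under 3-fold, while Rel holds 2 over a gene of similar size to Nfkbiz.

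Nfkb1, the longest member at 107479 bp, held 51 intervals over 37.9% of its region. Its strongest beyond the promoter lay in intron 6 (chr3:135333493-135337314), where the summit 63078 bp into the gene was listed at 22.8-fold. In intron 1 a summit at 16819 bp was listed at 20.6-fold (chr3:135378000-135382594), and another at 22274 bp, near an alternative start of the gene, at 12.8-fold (chr3:135373625-135377257). The next were 9.23-fold in intron 5 and 8.77-fold in intron 6. The first and second of these intronic sites came nearest to the 29.9-fold of the promoter. Nfkb2 held only 1 other interval, upstream at 2.03-fold.

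Relb held 15 intervals over 53.8% of its region, the strongest inside the gene in intron 4 at 12.5-fold and in intron 11 at 8.25-fold. A 44.1-fold interval at its 3′ end (chr7:19336658-19339104) had its summit at the start of Clasrp, a neighbouring splicing-factor gene. Rela had 9 intervals over 76.7% of its region. Its strongest beyond the promoter was 22.7-fold past the gene end (chr19:5696535-5702437), in an interval that also held a transcript start of Sipa1 3359 bp from the summit, and the interval at another start of Rela reached 3.86-fold. Rel was the barest of the group. Within 34418 bp it held its promoter interval and 1 intronic interval at 2.10-fold.

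Among the regulators, Nfkbia had no interval beyond the one that covers it, and the 8 others of Nfkbib were at most 2.62-fold. Nfkbie had 3 intervals over 92% of its region. An upstream one was listed at 14.3-fold with its summit 3381 bp before the start (chr17:45862831-45864703), and one past the gene end at 44.3-fold over 14720 bp (chr17:45872346-45887065) had its summit 12 bp from the start of Slc35b2, a transporter gene of the Golgi. The values past the ends of Relb and Nfkbie are thus those of neighbouring promoters. Nfkbiz had 11 intervals over 74.0% of its region, with 8.58-fold past the gene end and 6.02-fold in intron 2 beyond its pair of starts. Tnfaip3 had 8 over 74.8%, with 21.5-fold in intron 2 near another of its starts (chr10:18882001-18885558), 6127 bp downstream, and 6.09-fold in exon 9.

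**Figure D4:**
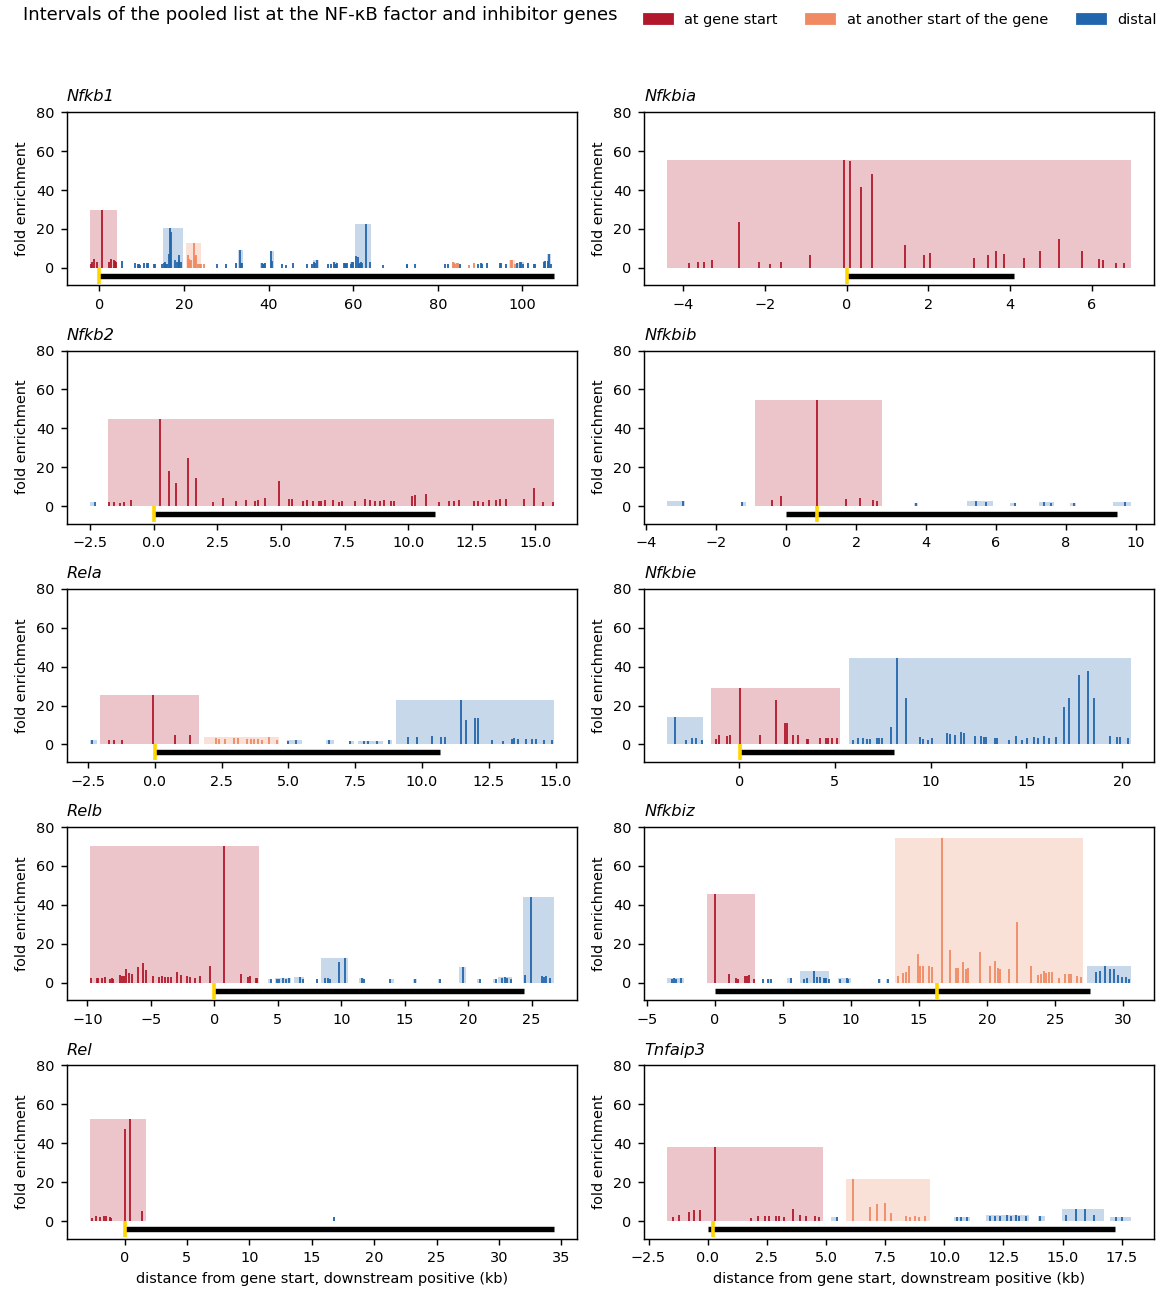
Intervals at each member by distance from the gene start in kb, drawn in the direction of transcription. Pale boxes span intervals up to the fold enrichment of their highest summit, vertical lines are single summits, the black bar is the gene and the gold tick its canonical start. Nfkbia and Nfkb2 lie inside single intervals, Rel shows almost nothing beyond its promoter, and the highest summit of Nfkbiz (74.2) is at its internal start.

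The κB letters were dense in the promoter intervals of the members. Their 77185 bp held 49 matches, or 0.635 per kb, against 0.183 per kb over all intervals at starts of protein-coding genes, a ratio of 3.46. Wide intervals as such did not have more per kb. Over the 5174 promoter intervals of at least 3533 bp, the width of the narrowest member, the density was 0.185 per kb, and 57.9% held a match. The same letters in reversed order, which keep the base composition, were found 16 times in the members, at 0.207 per kb against 0.198 over all, a ratio of 1.04. A reversed match was present in 9 of 10 member intervals and in 34.7% of all. With overlapping matches counted once, the members held 42, or 0.544 per kb, against 0.169 per kb. These searches were chosen after the data were seen, and the genes belong to a pathway known for regulating itself, so the density is given as a description of this group.

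The density was above the pooled 0.183 per kb of all promoter intervals in every member, but it was not even. In a narrow interval 1 match is enough to pass that value, as in Rela and Nfkbiz. Nfkbie had 7 matches at 1.04 per kb and Nfkbia 11 at 0.968 per kb, higher than 96.8% and 96.3% of promoter intervals. Relb followed with 9 matches at 0.677 per kb, Rel with 3 at 0.666, Nfkb2 with 11 at 0.627 and Nfkbib with 2 at 0.549. Lower were Nfkb1 with 2 at 0.319, Tnfaip3 with 2 at 0.304, Nfkbiz with 1 at 0.283 and Rela with 1 at 0.269. They ranked above 80.2%, 79.2%, 77.8% and 76.8% of promoter intervals. In these last 4 genes a density set by 1 or 2 matches is coarse, and in Nfkb1 and Rela the reversed letters occurred as often.

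Of the 49 matches, 23 lay within 1 kb of the gene start. All 10 members had at least 1 there, against 24.0% of the protein-coding genes with a promoter interval. Only sequence inside the promoter interval was searched, so genes with narrower intervals than the members had less of it. In Nfkbia the matches ran from 4103 bp upstream to 3811 bp downstream of the start, and in Nfkb2 as far as 12071 bp downstream, past the gene end. In Relb, 6 of 9 lay between 5071 and 7380 bp upstream, in the weak upstream part of its interval. That part also held a transcript start of Clptm1, 7460 bp from the highest summit. By position alone these 6 matches, and the Relb density they enter, cannot be assigned to Relb rather than to Clptm1. The matches were a median of 126 bp from the nearest summit of any height, and 22 were within 100 bp. They comprised 25 distinct decamers when a match and its reverse complement are counted as 1. The decamer shared by Nfkb1, Nfkbia and Nfkbiz was also present in Relb.

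**Figure D5:**
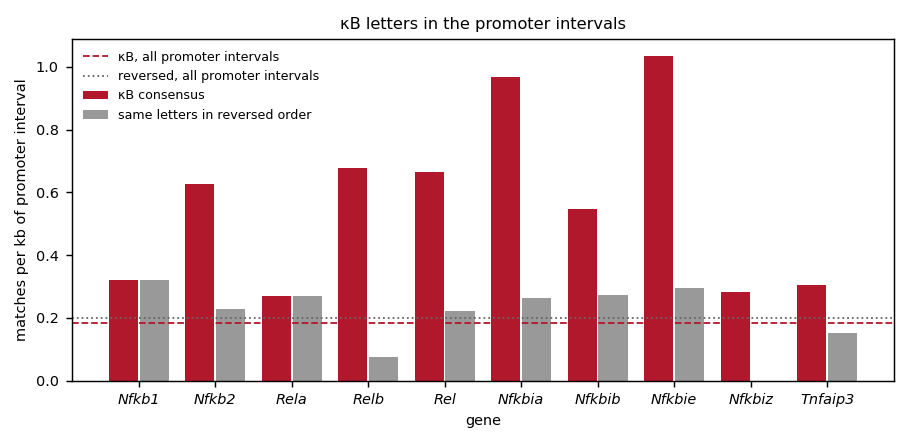
Matches per kb of promoter interval for the κB consensus (red) and for its letters in reversed order (grey) in each member, with dashed and dotted lines at the densities over all promoter intervals (0.183 and 0.198 per kb). Every red bar is above the dashed line, from 0.269 in Rela to 1.04 in Nfkbie, while the grey bars scatter around the dotted line.

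Closer to the summits and starts the counts were smaller. In the 200 bp centred on the highest summit, 9 of the 111 member intervals held a κB match (8.11%, against 3.41% of all intervals). The Wilson 95% range of this share was 4.32% to 14.7%. That range covers counting error only and treats the intervals as independent, although 51 of them came from Nfkb1. The reversed letters were in 6 of the 111 (5.41%, against 3.20%), a share inside that range. Among the intervals of at least 10-fold, 7 of 20 held a κB match, against 4.62% of all such intervals, and 2 of 20 the reversed letters, against 3.55%. By place, the match was present in 5 of the 12 intervals at starts of coding genes (3.69% over all), which were 4 of the 10 promoter intervals of the members and the interval at the Slc35b2 start, and in 4 of the 99 others (3.39% over all). In the fixed window from 250 bp upstream to 50 bp downstream of the canonical start, 4 of 10 members held one, Relb, Nfkbia, Nfkbie and Tnfaip3, against 4.87% of protein-coding genes. Relb held a pair of matches in this window, and so did Tnfaip3.

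Outside the gene starts, the members had 15 intervals of at least 5-fold over 1 kb from the gene start of every protein-coding gene. These held 9 matches in 4 of them, at 0.180 per kb, against 0.151 per kb over 56171 such intervals. All 4 were nevertheless at annotated transcript starts. The intervals at other starts of Nfkbiz, Tnfaip3 and Nfkb1 held 7 of the matches, and the Rela interval that takes in a Sipa1 transcript start held 2. The other 11, with no annotated start within 1 kb, held no match. The reversed letters were found 8 times in the 15 intervals together, at 0.160 per kb, against 0.173. Some of these reversed matches lay in the 11 and some in the 4. Examples of κB matches close to their summits are shown for 2 genes. That of Rela was 34 bp from the summit of the 22.7-fold interval past the gene end. That of Tnfaip3 was 94 bp from the summit of the 21.5-fold interval in intron 2.
Rela interval past the gene end (chr19:5698949-5699008, plus strand): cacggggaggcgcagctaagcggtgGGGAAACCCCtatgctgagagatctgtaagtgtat
Tnfaip3 intron 2 (chr10:18885154-18885213, minus strand): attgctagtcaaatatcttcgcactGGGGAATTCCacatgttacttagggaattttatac

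Letters of other factors were counted in the same places. AP-1 letters (TGANTCA) occurred 27 times in the member promoter intervals, 0.350 per kb against 0.259. In the 200 bp at the highest summits they were less frequent than in the whole list, in 9 of the 111 member intervals (8.11%, against 12.4%). By place, they were in 1 of the 12 intervals at starts of coding genes (5.35% over all) and in 8 of the 99 others (12.8% over all). Among intervals of at least 10-fold they were in 1 of 20, against 15.3%. Of these 20, 10 were promoter intervals, where AP-1 letters are rarer, so the 2 shares are not like for like. In the fixed window, the GC box (GGGCGG) was present in 7 members against 42.5% of genes, AP-1 letters in Nfkbie and Tnfaip3 against 7.15% of genes, and the cyclic AMP element (TGACGTCA) in 2 members, Relb and Rel, against 2.45%. HNF4 letters (CAAAGTCCA), the element of a factor of tubule cells, were in none of the 10 windows and in 0.45% of all. The windows had a median GC content of 55.8% and an observed to expected CpG ratio of 0.722, against 54.3% and 0.517 over all genes.

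The rest of the pathway was largely accessible as well. Of 59 further genes, 51 had a promoter interval of at least 10-fold (86.4%, against 57.4% of protein-coding genes), with a median of 34.4-fold. Kinases and ubiquitin machinery were highest, with 17 of 19 called and a median of 57.4-fold. Bcl10, a scaffold that links antigen receptors to the kinase, was listed at 90.5 and the ubiquitin ligase Birc2 at 86.9, while the kinase gene Ikbke was listed at 6.74. Further inhibitors were called in 9 of 10 (median 39.4), from the A20-binding gene Tnip3 at 6.68 and Tnip1 at 15.1 to the deubiquitinases Otulin at 63.6 and Cyld at 71.7.

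Receptors and adaptors were called in 16 of 17 with a median of 28.9-fold. The adaptors Traf2 (68.0) and Myd88 (60.5) were highest, and the receptor Il1r1 (9.30) lowest, followed by Cd40 and Traf1 at 13.9 each. Target genes were lowest as a group, with 9 of 13 called and a median of 15.4-fold. The mitochondrial superoxide dismutase gene Sod2 was listed at 79.5 and the survival gene Bcl2l1 at 63.2, but the cytokine gene Tnf at 5.63, and Il1b had no promoter interval. The members, at a median of 45.2, thus lay between the kinases and the further inhibitors.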

How the data were processed

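ATAC-seq was done on mouse kidney, with 3 WT and 3 Acly cKO libraries by their labels. The values are those of a pooled peak call that names no library. The methods describe further WT libraries from an earlier deposit, not analysed here, and whether these are in the pool is unknown. The authors used fastp for trimming and Bowtie2 2.3.4.3 for alignment to mm39, removed duplicate and multimapping reads, called peaks with MACS3 3.0.0 (extension 200 bp, shift 100 bp, q 0.05) and removed blacklisted regions with BEDTools 2.29.1, per the methods and the submitters' processing notes. The direction of the shift decides whether extended reads are centred on the cut, so summits may be displaced. The deposited list gives a linear fold enrichment (ratio) per summit, its −log10 q as the authors' caller wrote it, and a score derived by the authors' caller from the q. The deposited list of unfiltered summits holds the same −log10 q. Over intervals, fold and q gave the same order (Spearman rho 1), and fold values moved in steps of 0.0655.

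Rows sharing an interval were collapsed to their highest summit by q, and placed on GENCODE M39 (GRCm39). Distal intervals lay over 1 kb from every annotated start of the gene. All members were named, with their strongest promoter interval and up to 3 strongest distal intervals, the 2 highest and 2 lowest genes of each pathway list, other genes starting in a member's promoter interval, and the κB match nearest to the summit. Of the genes this rule names, 1 is not reported here. The members and lists were chosen with earlier results of these data known. No test was run, since no replicate values exist. Alternatives covered q, fold, region, promoter, start and motif settings. The scripts were tested on simulated data. The analysis ran in Python 3.11.15 with pysam 0.24.0 for sequence, pandas 2.3.3 and numpy 2.4.6 for tables, scipy 1.17.1 for intervals, and matplotlib 3.10.9.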

Additional observations from a re-analysis of the deposited data

How the results depend on the processing

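The number of intervals at the member genes depended on what was counted. It was 111 in the whole list, 55 with a q under 1e-05, 27 with a fold enrichment of at least 5, 169 with 10 kb on either side of the genes, and 538 when summits were counted. It stayed near with a q under 0.01 (91) or with the highest summit inside the region (104). The 9 intervals with a κB match became 3 in windows of 100 bp (2.70%, against 1.99% of all intervals, so little of the excess was left), 14 with windows at every summit, and 13 with a relaxed consensus (11.7%, against 7.03%). All 10 members kept a promoter interval of at least 10-fold under every promoter definition tried and at a threshold of 20-fold, and the median fold enrichment was 45.2, or 48.8 at canonical starts. Members with a strong distal interval numbered 6, 4 at 10-fold, and 5 away from the starts of every gene. The 51 pathway genes became 41 at 20-fold, an alternative added after the data were seen, as were the canonical starts for width (7 in place of 6) and for κB matches (51 matches, 0.583 per kb). For these counts of genes the share over all protein-coding genes was taken at the main settings only. The alternatives therefore show whether the counts held, and not how the genes stand among all genes.

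No paired analysis was possible because the only values come from 1 pooled call with no column for a single library. For the same reason no fit without a replicate was run.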

Other observations

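Beyond the gene regions, the 50 kb on either side of each member were searched for intervals over 1 kb from every annotated gene start, a search chosen after the data were seen. Nothing ties these intervals to the member rather than to another gene nearby. The strongest lay downstream of Nfkbia, 49.3 kb from the gene start (chr12:55486127-55491539), at 49.8-fold, close to the 55.3-fold of the Nfkbia promoter itself. Relb had one at 28.7-fold 39.6 kb upstream (chr7:19402412-19404745), Nfkb1 one at 22.2-fold 39.5 kb upstream (chr3:135437068-135438258), and Nfkbib one at 21.4-fold 35.5 kb upstream (chr7:28499444-28504500). On their downstream sides the strongest were 14.9-fold (Relb), 11.3-fold (Nfkb1) and 7.33-fold (Nfkbib).

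The strongest flanking intervals of Tnfaip3 were 16.7-fold at 19993 bp downstream of its start, past the gene end (chr10:18870364-18872606), and 13.2-fold at 19.3 kb upstream (chr10:18910277-18911661). The strongest flanking interval of Nfkbiz, at 14.8-fold 24.7 kb upstream (chr16:55682926-55684478), lay inside Nxpe3, and its strongest downstream was 5.43-fold. Rel had no flanking interval of at least 5-fold on either side, nor did Nfkb2 or Rela.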
